A study of Mus musculus with 8 samples.

Results

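The semaphorins are secreted or membrane-bound guidance cues, and the plexins and neuropilins are their receptors. The genes described here are the protein-coding genes whose symbols are Sema3 to Sema7 with a letter, Plxn with a letter from a to d and a number, and Nrp1 or Nrp2, chosen by name. There were 31 of them among 32780 genes: 20 semaphorins, taken as ligands, and 11 receptors, of which 9 were plexins and 2 neuropilins. The series measured total RNA of TC1 cells, a mouse embryonic stem cell line. The groups were cells differentiated for 10 days (day 10, 4 libraries) and undifferentiated embryonic stem cells (day 0, 4 libraries). All 8 libraries carry the genotype label wild-type, RNA was prepared with ribosomal RNA removed, and the labels used here name neither the inducing agents of the differentiation nor the cell type reached. Whether the 4 libraries of a day were separate cultures is not labelled, so the p-values reflect a spread that may be technical only. No batch is labelled either, and any that coincided with the day and the day itself cannot be told apart.

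A plexin is a single-pass receptor whose intracellular part acts on small GTPases, and a semaphorin binds it through its sema domain. Class 3 semaphorins are secreted and mostly need a neuropilin, which binds the ligand and has only a short intracellular tail, beside a class A plexin. Classes 4 to 7 are tied to the membrane and bind plexins directly, with class 4 known for class B plexins, class 6 for class A plexins and Sema7a for Plxnc1. The system is best known from axon guidance and also acts in vessel patterning, in heart outflow tract formation and in immune cells. Neuropilins are also co-receptors of vascular endothelial growth factors.

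The libraries held 13525255 to 17843651 estimated counts at day 10, against 11242568 to 15808039 at day 0. The 31 genes together held 0.279 to 0.336% of the counts at day 10 and 0.0516 to 0.0570% at day 0. The summed level of 11 pluripotency markers was 137 to 192 TPM at day 10 and 4335 to 4754 TPM at day 0. On counts, tested as described below, all 11 were called lower at day 10, Klf4 least (log2 change -0.19). In TPM Klf4 was higher at day 10, at 102.6 to 124.1 against 93.1 to 98.1 at day 0, and it held most of the day 10 sum. TPM, an abundance scaled for transcript length and library total, is used below for levels, as the sum over all transcripts of a gene. Log2 changes are day 10 over day 0 from edgeR's quasi-likelihood test on counts, with the standard error (SE), and adjusted p-values are by Benjamini-Hochberg over 15097 genes with a threshold of 0.05. In bulk RNA a change in the number of cells of a type and a change in RNA per cell cannot be told apart.

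Most of the system was higher at day 10. Of the 30 genes tested, 24 were higher at day 10 and 5 were lower, while Sema7a passed in neither direction. Over all genes tested, 42.7% were higher and 39.4% lower. A change of more than 2-fold, tested as such, was called upward in 19 of the genes and downward in 4, and over all genes tested those calls covered 24.1% and 17.3%. The TPM of the 4 day 10 libraries lay wholly above that of the 4 day 0 libraries in 24 genes and wholly below it in 3, and over all genes tested this was so in 49.0% and 24.6%. The median log2 change was 1.90 for the 30 genes and 0.06 for all genes tested. On TPM the balance over all genes shifted upward, with 7846 genes called higher and 4077 lower by limma-trend, against 6449 higher and 5950 lower on counts. The 31st gene, Plxnb3, a class B plexin, was too low to test, with 6, 4, 1 and 1 counts at day 10 and 2, 2, 1 and 4 at day 0.

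**Figure D1:**
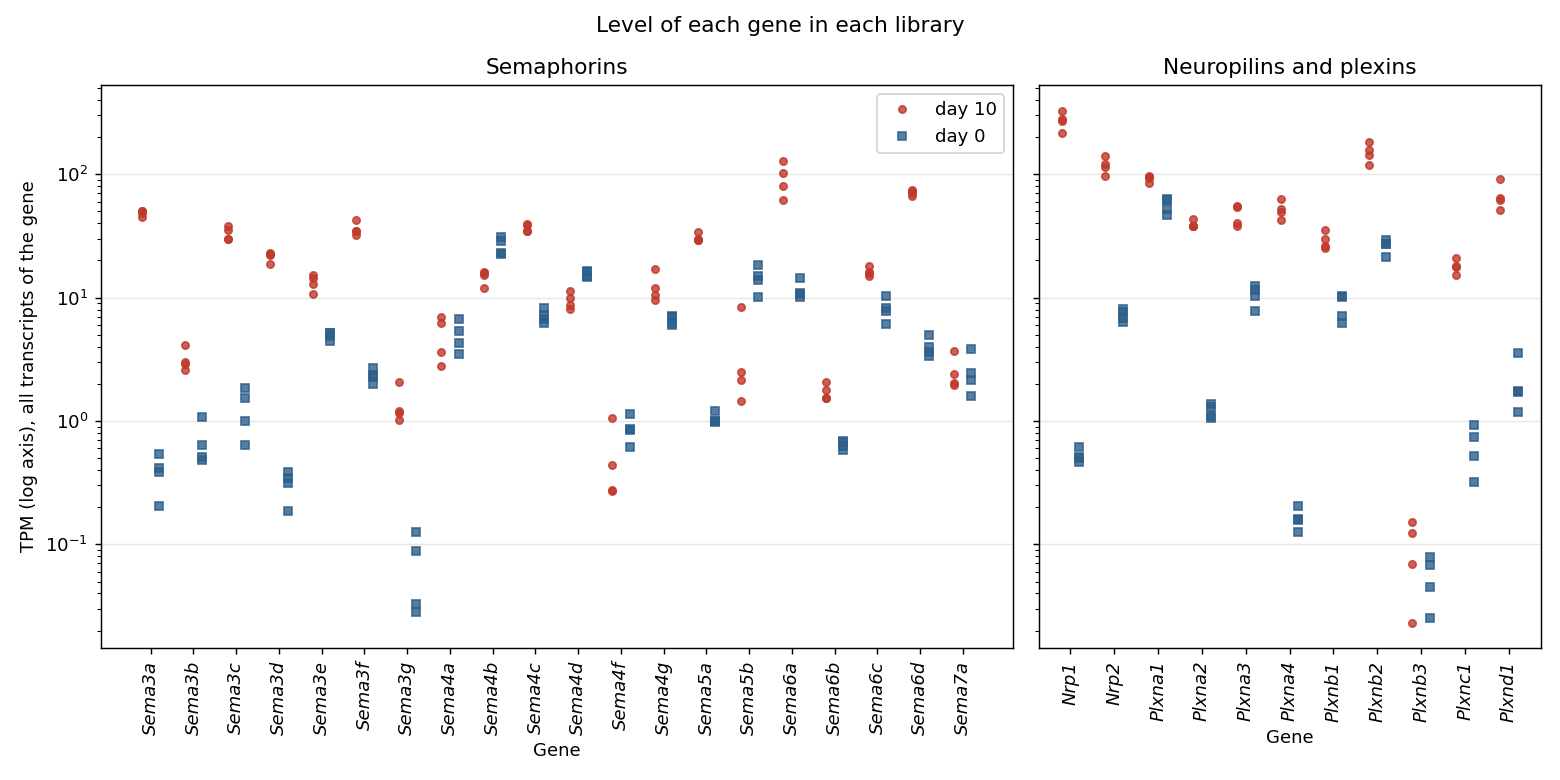
Level of each of the 31 genes in TPM on a log axis, summed over all transcripts of the gene, with 1 point per library (4 at day 10, circles, left, and 4 at day 0, squares, right). Nrp1 stands highest at day 10 at 216 to 328 TPM, and the points of both days overlap in Sema4a, Sema4f, Sema7a and Plxnb3.

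Both neuropilins rose. Nrp1, which binds class 3 semaphorins and VEGF-A, had 328, 216, 268 and 279 TPM in the day 10 libraries, against 0.515, 0.610, 0.505 and 0.465 TPM at day 0. It was the highest of all 31 genes at day 10, with 5584 to 8379 counts per library, and rested on 12 to 19 counts per library at day 0. Its log2 change of 8.59 (SE 0.19, adjusted p = 3.74e-12) was the largest of the 30 tested genes. Nrp2, which binds Sema3f and VEGF-C, had 139.9, 97.0, 121.9 and 114 TPM at day 10, against 6.82, 7.60, 6.34 and 8.02 TPM at day 0 (log2 change 3.64, SE 0.13, adjusted p = 2.79e-10). Nrp2 was thus already measurable at day 0, where it held most of the neuropilin RNA. In both genes day 10 library 2 was the lowest library of its day. Without it the log2 changes were 8.70 for Nrp1 and 3.73 for Nrp2.

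Nrp2 transcripts end in 1 of 2 alternative last coding exons, and these encode different membrane-spanning and intracellular ends of the receptor, known as the a form (distal exon) and the b form (proximal exon). They are printed here because the balance between them differed between the days. The first 150 coding bases of each are given from the GENCODE M21 transcripts, with positions on GRCm38, plus strand, in lower case. A shared small exon upstream has a longer form, whose added bases are in capitals, and a further exon is carried only by the distal-end transcripts Nrp2-202 and Nrp2-206.
Nrp2 proximal end, chr1:62795709-62795858: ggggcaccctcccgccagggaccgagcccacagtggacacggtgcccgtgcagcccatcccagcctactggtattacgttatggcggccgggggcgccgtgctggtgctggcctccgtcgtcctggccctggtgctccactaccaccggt
Nrp2 distal end, chr1:62815333-62815482: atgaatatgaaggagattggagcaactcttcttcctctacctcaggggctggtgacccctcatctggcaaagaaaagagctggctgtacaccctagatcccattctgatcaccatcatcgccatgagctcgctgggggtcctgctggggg
Nrp2 small exon, chr1:62786281-62786316: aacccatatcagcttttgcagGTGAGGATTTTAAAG
Nrp2 skipped exon, chr1:62812534-62812584: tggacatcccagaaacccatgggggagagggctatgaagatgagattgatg

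The proximal last exon holds 278 coding bases and ends 2 transcripts, Nrp2-201 and Nrp2-205, and the distal exon holds 302 coding bases and ends 4 transcripts. Transcripts with the proximal end made up 42.8, 39.5, 41.7 and 42.0% of the coding Nrp2 TPM in the day 10 libraries, against 20.3, 14.8, 26.3 and 20.4% at day 0. The ranges did not overlap, with means of 41.5 ± 1.43% at day 10 and 20.5 ± 4.71% at day 0 (SD, n = 4 each). Such separation was common. Of 16108 single transcripts with more than 15% of their gene's TPM on a day, 29.8% had shares that did not overlap between the days. In TPM the proximal-end transcripts had 57.0, 36.6, 48.9 and 44.8 at day 10 and 1.36, 1.05, 1.43 and 1.53 at day 0. The distal-end transcripts had 76.1, 56.0, 68.4 and 61.9 TPM at day 10 and 5.34, 6.06, 4.02 and 5.97 TPM at day 0, so both ends were higher at day 10 and the distal end remained the more abundant one in each library. The shares rested on 1773 to 2525 estimated counts for the proximal end at day 10 and 56.7 to 100.8 at day 0. On estimated counts in place of TPM they were 39.7 to 43.2% at day 10 and 14.02 to 26.7% at day 0. This split and its recount were picked out after the values were seen, and no test is given for it.

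**Figure D2:**
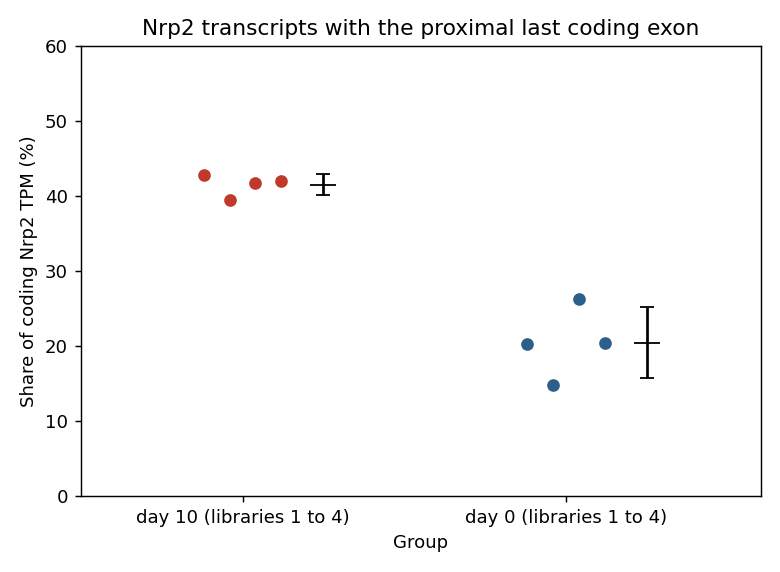
Share of coding Nrp2 TPM, in percent, in transcripts with the proximal last coding exon, with 1 point per library (day 10 left, day 0 right). The bar is the mean ± SD of 4 libraries, 41.5 ± 1.43% at day 10 and 20.5 ± 4.71% at day 0.

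All 8 plexins that could be tested were higher at day 10, and for 7 of them the change exceeded 2-fold. The class A plexins are the signalling partners of neuropilins and the receptors of class 6 semaphorins, and they differed widely in their change. Plxna4 had 62.6, 42.4, 49.3 and 52.1 TPM at day 10, against 0.158, 0.205, 0.126 and 0.160 TPM at day 0, a log2 change of 7.75 (SE 0.18, adjusted p = 4.56e-12), the second largest after Nrp1. Plxna2 had 42.9, 38.2, 38.0 and 38.0 TPM at day 10, against 1.06, 1.38, 1.09 and 1.30 TPM at day 0 (log2 change 4.57, SE 0.11, adjusted p = 2.49e-13). Both were low in embryonic stem cells, and neither overlapped between the days.

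Plxna1 showed the opposite profile: it had the highest mean TPM of the receptors at day 0 and changed least. It had 94.9, 92.9, 84.8 and 97.0 TPM at day 10, against 62.4, 62.1, 46.6 and 52.6 TPM at day 0 (log2 change 0.47, SE 0.06, adjusted p = 1.12e-05). Its direction depends on how transcript length is handled, since removing the length trend gave a log2 change of -0.17 (adjusted p = 0.0111). A 678-base transcript annotated as a target of nonsense-mediated decay, Plxna1-203, carried 48.1% of the Plxna1 TPM at day 10 and 56.7% at day 0, although protein-coding transcripts held 94.3% of its counts at day 10 and 93.1% at day 0. Plxna3, the remaining class A plexin, had 55.0, 54.0, 38.0 and 40.4 TPM at day 10, against 7.77, 12.5, 11.4 and 10.2 TPM at day 0 (log2 change 1.47, SE 0.12, adjusted p = 4.44e-08). Protein-coding transcripts held 14.5% of the Plxna3 TPM at day 10 and 17.9% at day 0, but 77.4% of its counts at day 10 and 79.0% at day 0. A 427-base processed transcript, Plxna3-202, carried 66.2% of the TPM at day 10 and 56.5% at day 0. In coding TPM Plxna3 ranked 10 among the 11 receptors at day 10 in place of 7.

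Of the class B plexins, known as receptors of class 4 semaphorins, Plxnb1 and Plxnb2 were already present at day 0. Plxnb2 had 182, 142.3, 119.6 and 156 TPM at day 10, against 27.0, 26.9, 21.4 and 29.3 TPM at day 0 (log2 change 1.87, SE 0.08, adjusted p = 4.17e-11). Plxnb1, a receptor of Sema4d, had 29.9, 35.2, 26.2 and 25.1 TPM at day 10, against 10.3, 10.0, 7.08 and 6.22 TPM at day 0 (log2 change 1.46, SE 0.11, adjusted p = 2.44e-08). Neither gene overlapped between the days. With the length trend removed the log2 changes were 1.17 for Plxnb2 and 0.66 for Plxnb1, both still called. Plxnb1, Plxna1 and Plxna4 overlap opposite-strand transcripts (Gm7628, Gm26811 and Plxna4os3), which averaged at most 0.448 TPM at day 10 and 0.0558 TPM at day 0.

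The single members of classes C and D were low at day 0 and rose. Plxnd1, the receptor of Sema3e and a regulator of vessel patterning, had 64.6, 62.0, 51.1 and 91.4 TPM at day 10, against 1.19, 1.71, 1.76 and 3.54 TPM at day 0 (log2 change 5.27, SE 0.16, adjusted p = 3.28e-12). Protein-coding transcripts held 34.3% of its TPM at day 10 and 19.3% at day 0, but 90.9% of its counts at day 10 and 81.2% at day 0, and on coding transcripts alone the log2 change was 5.49. Plxnc1, the receptor of Sema7a, had 21.02, 15.2, 18.1 and 17.8 TPM at day 10, against 0.322, 0.739, 0.518 and 0.928 TPM at day 0 (log2 change 4.64, SE 0.13, adjusted p = 1.06e-12). In both genes every day 10 library stood above every day 0 library.

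Ordered by mean TPM, the receptors at day 10 ran from Nrp1 at 273 through Plxnb2 at 149.9, Nrp2 at 118, Plxna1 at 92.4, Plxnd1 at 67.3, Plxna4 at 51.6, Plxna3 at 46.9, Plxna2 at 39.3 and Plxnb1 at 29.1 to Plxnc1 at 18.02 and Plxnb3 at 0.0920. The libraries of neighbours in this order overlapped for Plxnb2 and Nrp2 and for every neighbouring pair from Plxna1 down to Plxna2. The order within each of those pairs is not resolved. In TPM of protein-coding transcripts the day 10 order differed. Nrp2 averaged 112.4 and Plxnb2 103.5, and Plxna4 averaged 47.25 and Plxna1 43.55, with overlapping libraries in both pairs. Plxnd1, at 23.06, ranked 8 in place of 5. Plxna2, at 22.2 to 29.7, and Plxnb1, at 21.7 to 31.15, then overlapped. At day 0 the order began with Plxna1 at 55.9 TPM and Plxnb2 at 26.2 TPM, each clear of the next, and Plxna3, Plxnb1 and Nrp2 followed at 10.5, 8.40 and 7.20 TPM with overlapping libraries. In TPM of protein-coding transcripts the day 0 lead is not resolved, since Plxna1 averaged 23.1 (21.3 to 25.4 over the libraries) and Plxnb2 21.7 (20.5 to 23.3). Nrp1, first at day 10, ranked 9 of 11 at day 0.

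All 7 class 3 semaphorins, the secreted ligands, were higher at day 10, and 6 of them by more than 2-fold. Sema3a, the prototype repulsive cue and a ligand of Nrp1, had 50.7, 45.2, 50.2 and 48.2 TPM at day 10, against 0.420, 0.543, 0.388 and 0.203 TPM at day 0 (log2 change 6.90, SE 0.15, adjusted p = 1.01e-13). Sema3d had 22.1, 18.8, 23.0 and 22.7 TPM at day 10, against 0.343, 0.387, 0.314 and 0.186 TPM at day 0 (log2 change 6.34, SE 0.15, adjusted p = 2.04e-13). At day 0 these ligands rested on 8 to 19 counts per library for Sema3a and 8 to 11 for Sema3d.

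Sema3c, a ligand with a known part in outflow tract septation, had 29.8, 35.2, 37.8 and 29.7 TPM at day 10, against 1.54, 0.633, 0.998 and 1.85 TPM at day 0 (log2 change 4.72, SE 0.13, adjusted p = 7.70e-13). Sema3f, the main ligand of Nrp2, had 42.7, 32.2, 34.9 and 34.4 TPM at day 10, against 1.99, 2.37, 2.28 and 2.71 TPM at day 0 (log2 change 4.09, SE 0.15, adjusted p = 1.10e-11). Sema3a, Sema3d, Sema3c and Sema3f stood between 18.8 and 50.7 TPM in the day 10 libraries and at most at 2.71 TPM at day 0. Protein-coding transcripts held 47.4% of the Sema3c TPM at day 10 and 27.3% at day 0. For Sema3f they held 53.9% at day 10 and 57.2% at day 0.

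Sema3e, the ligand that acts on Plxnd1 without a neuropilin, was the class 3 member with the highest day 0 level and the smallest change. It had 14.4, 10.6, 15.2 and 12.8 TPM at day 10, against 5.17, 5.16, 4.48 and 4.86 TPM at day 0 (log2 change 1.09, SE 0.12, adjusted p = 1.18e-06), and the change was not called as over 2-fold. With the length trend removed it was 0.30 (adjusted p = 0.0423). Sema3g and Sema3b were low on both days. Sema3g, known from blood vessels, had 1.02 to 2.07 TPM at day 10 and 0.0282 to 0.126 TPM at day 0, with 1 to 5 counts per library there (log2 change 3.76, SE 0.45, adjusted p = 2.24e-06). Sema3b had 2.59 to 4.14 TPM at day 10 and 0.479 to 1.08 TPM at day 0 (log2 change 1.69, SE 0.24, adjusted p = 1.76e-05). Its protein-coding transcripts held 167 counts over the day 10 libraries and 10.99 at day 0, with 0 in 2 of the day 0 libraries.

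Sema3d, Sema3a, Sema3e and Sema3c lie in that order on the plus strand of chromosome 5, within 5.35 Mb between positions 12383385 and 17730268 of GRCm38 (GENCODE M21). The log2 changes along this stretch were 6.34, 6.90, 1.09 and 4.72, so the third gene of the row changed far less than those beside it. The stretch holds 17 other protein-coding genes, of which 3 could be tested, and all 3 were higher at day 10, as were 42.7% of all genes tested. These 3 were Pclo, Cacna2d1 and Hgf, named here after their values were seen.

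Class 4 was the one class in which most members fell: 4 of 6 were lower at day 10 and 2 were higher. The summed TPM of the class was still higher at day 10, at 71.6 to 89.4 against 56.8 to 67.0 at day 0. Sema4b was the most abundant ligand at day 0. It had 16.1, 15.8, 15.2 and 11.9 TPM at day 10, against 28.7, 30.7, 22.3 and 22.8 TPM at day 0 (log2 change -1.26, SE 0.10, adjusted p = 4.70e-08), and its libraries did not overlap between the days. Sema4d, the ligand of Plxnb1 and also known as CD100 on lymphocytes, had 8.05, 9.87, 11.2 and 8.72 TPM at day 10, against 16.3, 16.1, 14.9 and 14.7 TPM at day 0 (log2 change -1.04, SE 0.10, adjusted p = 2.32e-07). Both falls were called on TPM as well as on counts.

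The falls of the other two depended on the measure. Sema4a, known from T cell costimulation and the retina, had 1.25, 2.10, 1.75 and 2.91 CPM (counts scaled to library size with TMM factors) at day 10, against 4.61, 5.71, 7.16 and 5.69 CPM at day 0 (log2 change -1.51, SE 0.26, adjusted p = 8.88e-05). In TPM it had 2.77, 6.90, 3.61 and 6.17 at day 10, against 3.48, 4.28, 6.76 and 5.36 at day 0, which overlap, and the TPM test gave a log2 change of -0.08 (adjusted p = 0.816). On protein-coding transcripts alone the log2 change was -0.07 (adjusted p = 0.873). Its coding transcripts held 79.6 counts over the 4 day 10 libraries and 70.1 over the 4 day 0 libraries, whereas its other transcripts held 47.4 counts at day 10 and 234 at day 0. Sema4f held 6 to 9 counts in each day 10 library, against 21 to 32 in each day 0 library (log2 change -1.93, SE 0.31, adjusted p = 4.98e-05), but its TPM overlapped, at 0.271 to 1.05 at day 10 and 0.616 to 1.15 at day 0, and the TPM test did not call it (adjusted p = 0.0731).

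Sema4c and Sema4g rose. Sema4c, a ligand of Plxnb2, had 34.7, 39.3, 34.9 and 38.5 TPM at day 10, against 7.16, 8.26, 6.27 and 6.68 TPM at day 0 (log2 change 1.94, SE 0.09, adjusted p = 7.77e-11). It overlaps an opposite-strand transcript, D430040D24Rik, over 334 exon bases, which was itself at 4.29 TPM at day 10 and 0.525 TPM at day 0, and whether strand was used in counting is not given in the sources used here. Sema4g had 9.62, 17.1, 10.4 and 12.1 TPM at day 10, against 6.20, 7.07, 6.95 and 6.03 TPM at day 0 (log2 change 0.49, SE 0.15, adjusted p = 0.00868). Its direction reversed to -0.14 (adjusted p = 0.382) with the length trend removed.

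The 2 class 5 semaphorins, which carry thrombospondin repeats beside the sema domain, moved in opposite directions. Sema5a had 34.2, 29.0, 29.0 and 29.8 TPM at day 10, against 1.01, 1.21, 0.975 and 1.005 TPM at day 0 (log2 change 4.94, SE 0.10, adjusted p = 8.28e-14). Sema5b had 2.17, 8.37, 2.48 and 1.46 TPM at day 10, against 14.8, 18.4, 13.99 and 10.02 TPM at day 0 (log2 change -2.38, SE 0.29, adjusted p = 2.07e-05), the largest fall among the 31 genes. Day 10 library 2 stood well above the other 3 in Sema5b, and without it the log2 change was -2.87 (adjusted p = 1.75e-11). In summed TPM class 5 was at 31.3 to 37.4 at day 10 and 11.02 to 19.7 at day 0, with Sema5b the main part at day 0 and Sema5a at day 10.

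All 4 class 6 semaphorins, the membrane ligands of class A plexins, were higher at day 10. Sema6a had 61.6, 128, 102 and 80.3 TPM at day 10, against 10.1, 10.9, 10.8 and 14.5 TPM at day 0 (log2 change 2.49, SE 0.10, adjusted p = 3.65e-11). Sema6d, a ligand of Plxna1 with a known part in chick heart morphogenesis, had 74.6, 66.3, 69.9 and 73.1 TPM at day 10, against 3.36, 4.94, 3.95 and 3.62 TPM at day 0 (log2 change 3.71, SE 0.11, adjusted p = 1.71e-12). They were the most abundant ligands at day 10, and their libraries overlapped, Sema6a varying more. A 740-base fragment, Sema6a-205, took 27.4 to 51.7% of the Sema6a TPM at day 10 and 17.9 to 69.7% at day 0.

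For the other two a change of more than 2-fold was not called. Sema6c had 15.1 to 18.2 TPM at day 10 and 6.16 to 10.3 TPM at day 0 (log2 change 0.92, SE 0.11, adjusted p = 1.82e-06). Protein-coding transcripts held 41.4% of the Sema6c TPM at day 10 and 33.7% at day 0. Sema6b had 1.52 to 2.08 TPM at day 10 and 0.585 to 0.686 TPM at day 0 (log2 change 0.83, SE 0.24, adjusted p = 0.00592), a call lost with the length trend removed (adjusted p = 0.102). Sema7a, the lipid-anchored ligand of Plxnc1 and of an integrin, was at 2.04, 3.68, 1.94 and 2.38 TPM at day 10 and at 2.16, 3.82, 2.45 and 1.58 TPM at day 0. Its log2 change was -0.20 (SE 0.24, adjusted p = 0.444), a value that does not show that its level was equal on both days.

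Among ligands the order by mean TPM at day 10 began with Sema6a at 93.1 and Sema6d at 71.0, followed by Sema3a at 48.6, which was clear of both Sema6d and the next gene. The first place of Sema6a rested in part on the 740-base fragment Sema6a-205, which averaged 40.2 TPM and is annotated as protein-coding. Sema4c, Sema3f, Sema3c and Sema5a then followed at 36.9, 36.0, 33.1 and 30.5 TPM, each overlapping the next, although Sema4c was clear of Sema5a. In TPM of protein-coding transcripts Sema4c, at 31.8 to 35.9, was clear of all 3. These were at 18.5 to 20.8 (Sema3f), 13.4 to 18.8 (Sema3c) and 19.0 to 23.0 (Sema5a). At day 0 Sema4b stood first at 26.1 TPM and apart from the rest. Sema4d, Sema5b and Sema6a followed at 15.5, 14.3 and 11.6 TPM, each overlapping the next, although Sema4d was clear of Sema6a. The lowest ligands were Sema4f at 0.509 TPM at day 10 and Sema3g at 0.0688 TPM at day 0.

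**Figure D3:**
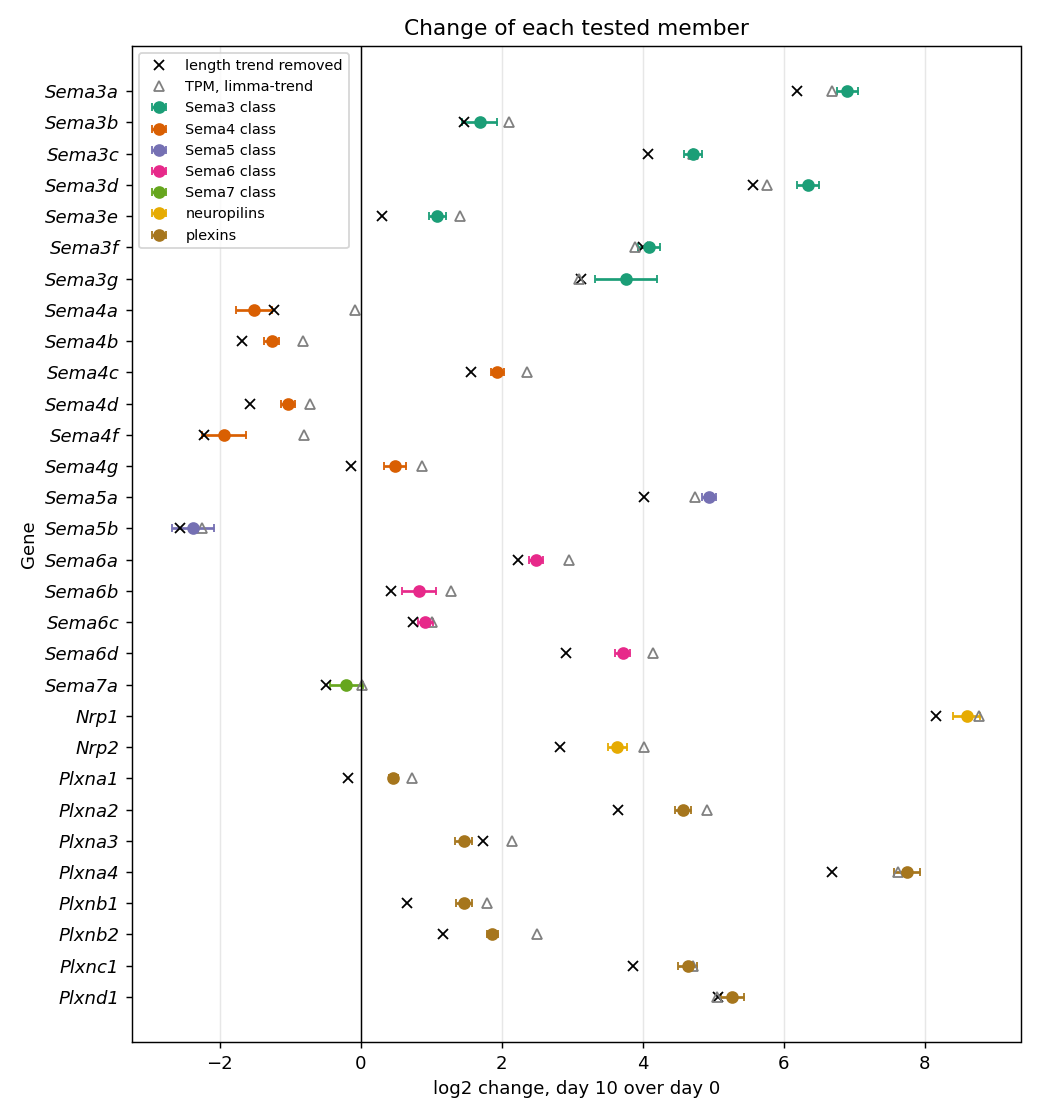
Log2 change (day 10 over day 0) of the 30 tested genes, coloured by class, with bars of 1 SE. Crosses show the change after the length trend was removed and triangles the limma-trend change on log2(TPM + 0.1): Nrp1 lies farthest right at 8.59 and Sema5b farthest left at -2.38, and the cross of Plxna1 falls left of 0 at -0.17.

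The summed level of the receptors differed more between the days than that of the ligands. Summed receptor TPM was 1020, 795, 815 and 911 in the day 10 libraries, against 118, 124, 96.9 and 113 at day 0, so the mean was 7.85 times as high. Summed ligand TPM was 428, 490, 465 and 437 at day 10, against 115, 125, 106 and 107 at day 0, a mean 4.01 times as high. Plexins alone had a mean 4.71 times as high, and the 2 neuropilins 50.6 times. Receptors thus made up 70.5, 61.9, 63.7 and 67.6% of the total of both at day 10 and 50.5, 49.8, 47.7 and 51.4% at day 0. The ranges of this share did not overlap, and no test was run on it. Among the tested genes the median log2 change was 4.10 for the 10 receptors and 1.39 for the 20 ligands, or 3.23 and 1.11 with the length trend removed.

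The make-up of each side differed as well. Class 4 held 16.4 to 18.3% of the ligand TPM at day 10 and 53.1 to 54.7% at day 0. Class 3 held 29.9 to 38.6% at day 10 and 7.78 to 10.3% at day 0, and class 6 held 35.7 to 43.5% at day 10 and 19.9 to 24.9% at day 0. Neuropilins held 39.3 to 47.8% of the receptor TPM at day 10 and 6.24 to 7.51% at day 0. The largest ligand class was thus class 6 or class 3 in the day 10 libraries and class 4 in the day 0 libraries. Counting protein-coding transcripts only, the mean sums were 646.9 TPM at day 10 and 62.7 at day 0 for receptors, and 346.0 TPM at day 10 and 77.6 at day 0 for ligands. Over all transcripts the receptor mean at day 10 was 885.3 TPM, and 613 TPM without Nrp1.

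**Figure D4:**
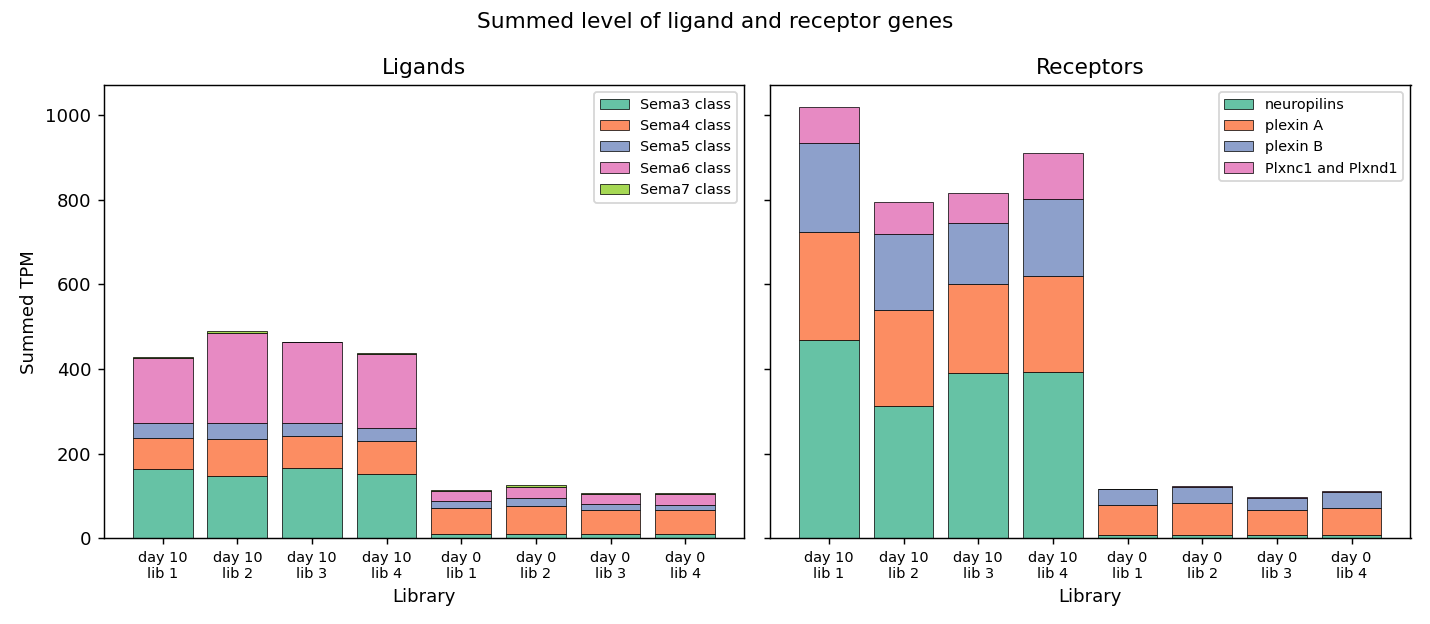
Summed TPM of ligands (left panel, stacked by semaphorin class) and receptors (right panel, stacked by neuropilins, class A plexins, class B plexins and the remaining plexins), with 1 bar per library, day 10 before day 0. Receptor bars reach 795 to 1020 TPM at day 10 and 96.9 to 124 TPM at day 0, and ligand bars 428 to 490 TPM at day 10 and 106 to 125 TPM at day 0.

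Transcript use was examined in the 13 genes with at least 100 counts in every library. Of 31 transcripts that held more than 15% of their gene's TPM on a day, 8 had shares that did not overlap between the days, and none of these shares was tested. By the same rule 29.8% of 16108 transcripts of 7587 protein-coding genes were separated. Besides Nrp2-202 and Nrp2-205 the 8 included Sema4d-202 and Sema4d-201. Sema4d-202 held 54.1 to 89.8% at day 10 and 0.07 to 29.5% at day 0, while Sema4d-201 was listed at 0 in all day 10 libraries and held 13.8 to 83.3% at day 0. Both have 2583 coding bases. Sema4b-204 held 21.1 to 46.8% at day 10 and 54.8 to 80.4% at day 0, and it too has the same coding length, 2469 bases, as Sema4b-201. The other separated transcripts, Sema4b-202, Sema3e-203 and Plxnb2-208, are annotated as retained introns. Shares within a day varied widely for near-identical transcripts, as at day 0 for Sema4d-201 and for Sema4d-203 (0.08 to 60.7%), which also has 2583 coding bases.

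Promoter sequences were available from RefSeq (GRCm38.p6) for 26 of the 31 genes, in 37 windows of 250 bases upstream of a start. The GC box GGGCGG, on either strand, was found in 73.0% of these windows and in 32.7% of all 32851 promoter windows. It was in 83.3% of the 24 windows of genes called higher and in 54.5% of the 11 windows of genes called lower. The TATA box TATAAA was in 0 of the 37 windows and in 12.4% of all windows, and the GATA motif AGATAA in 0 and in 9.99%. CCAAT was in 18.9% against 33.8% of all windows, the TEAD motif GGAATG in 8.11% against 12.6%, and the E-box CAGCTG, which reads the same on both strands, in 16.2% against 13.0%. The windows had a median GC content of 64.0%, against 52.4% over all windows, and a median ratio of observed to expected CpG of 0.536, against 0.374. A match is only a match of letters, and windows of 1 gene are not independent. The windows of 3 genes are printed with each GC box (or its reverse complement) in capitals, those of 2 strongly rising genes, with and without the box, and the first of 2 windows of the most abundant day 0 ligand, all on the plus strand.
Nrp1 promoter, chr8:128358823-128359072: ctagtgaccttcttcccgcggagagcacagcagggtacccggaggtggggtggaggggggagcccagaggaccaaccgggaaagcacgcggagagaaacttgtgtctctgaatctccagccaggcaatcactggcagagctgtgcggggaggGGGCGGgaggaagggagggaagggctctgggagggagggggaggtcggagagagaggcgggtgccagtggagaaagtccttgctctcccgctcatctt
Sema3d promoter, chr5:12382916-12383165: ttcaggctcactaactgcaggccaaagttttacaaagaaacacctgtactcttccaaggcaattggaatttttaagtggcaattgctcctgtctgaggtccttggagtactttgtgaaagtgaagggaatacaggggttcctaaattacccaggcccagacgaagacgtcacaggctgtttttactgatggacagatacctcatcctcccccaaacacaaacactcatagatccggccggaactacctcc
Sema4b promoter, chr7:80186620-80186869: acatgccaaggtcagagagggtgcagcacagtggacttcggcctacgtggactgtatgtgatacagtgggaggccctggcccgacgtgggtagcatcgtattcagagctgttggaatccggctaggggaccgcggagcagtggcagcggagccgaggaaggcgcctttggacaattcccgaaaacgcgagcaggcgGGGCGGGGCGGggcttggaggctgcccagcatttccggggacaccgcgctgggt

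Partners of the system were followed through 4 lists of genes. Of 34 effectors of plexins, 22 were higher at day 10, 5 were lower and 7 were not called, with a median log2 change of 0.73, while over all genes tested 42.7% were higher and 39.4% lower. Mical2, an oxidoreductase of the actin cytoskeleton, had 93.3 to 96.7 TPM at day 10 and 3.36 to 5.56 TPM at day 0 (log2 change 4.22, SE 0.07, adjusted p = 1.46e-14). Dpysl2, the collapsin response mediator CRMP2, had 196 to 216 TPM at day 10 and 10.9 to 12.5 TPM at day 0 (log2 change 3.73, SE 0.07, adjusted p = 1.62e-14). Among those lower at day 10 was Mras, a Ras-family GTPase, at 10.6 to 16.0 TPM at day 10 and 26.8 to 30.6 TPM at day 0 (log2 change -0.95, adjusted p = 1.72e-06).

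Of 17 co-receptors and other semaphorin receptors, 14 were higher and 2 lower, with a median log2 change of 2.69. The shares over all genes tested were 42.7% higher and 39.4% lower. Kdr, the VEGF receptor that pairs with neuropilins, had 67.2 to 85.0 TPM at day 10 and 0.830 to 1.28 TPM at day 0 (log2 change 5.76, SE 0.14, adjusted p = 1.44e-12). Itga1, an integrin subunit of a Sema7a receptor, had 8.71 to 10.4 TPM at day 10 and 0.977 to 1.73 TPM at day 0 (log2 change 2.69, adjusted p = 1.02e-10). Cntn2 was lower at day 10 (log2 change -1.74, adjusted p = 1.65e-06), at 0.740 to 1.02 TPM at day 10 and 1.63 to 2.20 TPM at day 0. L1cam, a co-receptor of Nrp1 for Sema3a, was lower on counts (log2 change -1.22, adjusted p = 0.00984), but its TPM of 0.390 to 3.33 at day 10 spanned the 1.51 to 1.93 of day 0, and the call was lost on TPM (-0.30, adjusted p = 0.577).

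Among 5 VEGF ligands 3 were higher and 1 was lower, while 42.7% of all genes tested were higher and 39.4% lower. Pgf had 51.8 to 66.6 TPM at day 10 and 0.544 to 2.15 TPM at day 0 (log2 change 5.36, adjusted p = 9.36e-10), and Vegfa 201 to 336 TPM at day 10 and 91.1 to 133 TPM at day 0 (log2 change 0.73, adjusted p = 2.58e-06). Vegfb was lower on counts (log2 change -0.53, adjusted p = 0.00154), a call lost on TPM (-0.12, adjusted p = 0.489) and with the length trend removed (-0.10, adjusted p = 0.521). Of the 4 proprotein convertases, enzymes that cleave class 3 semaphorins among other precursors, 3 were higher and 1 was lower. Pcsk5 had 25.3 to 31.6 TPM at day 10 and 0.580 to 1.15 TPM at day 0 (log2 change 4.74, adjusted p = 2.92e-12), and Furin 78.1 to 98.8 TPM at day 10 and 11.1 to 14.1 TPM at day 0 (log2 change 2.37, adjusted p = 7.35e-12). Pcsk6 was lower, at 2.11 to 5.30 TPM at day 10 and 23.9 to 30.8 TPM at day 0 (log2 change -3.18, adjusted p = 3.28e-11).

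Markers of several cell types that express these genes moved with the day. Their counts stand beside 42.7% higher and 39.4% lower over all genes tested. Summed TPM of 8 fibroblast markers was 3156 to 5185 at day 10 and 53.7 to 56.5 at day 0, with 8 of 8 higher at day 10 and Col3a1 the highest. Of 7 smooth muscle markers 6 were higher, at a sum of 632 to 1005 TPM at day 10 and 34.2 to 42.6 TPM at day 0, with Acta2 the highest. All 10 tested of 11 cardiomyocyte markers were higher, at 619.5 to 949.7 TPM at day 10 and 33.1 to 39.4 TPM at day 0, with Myh7 the highest. Of 11 endothelial markers 9 were higher, at 211 to 248 TPM at day 10 and 59.0 to 69.3 TPM at day 0, with Tek the highest. All 11 tested of 12 blood and macrophage markers were higher, at 154 to 231 TPM at day 10 and 2.84 to 3.56 TPM at day 0, and 4 of the 12 were listed at 0 in every day 0 library. Of 10 epithelial and visceral endoderm markers 8 were higher and 2 lower, at 837 to 1929 TPM at day 10 and 414 to 444 TPM at day 0, with Afp the highest. Of 7 neural crest markers 4 could be tested, 2 higher and 1 lower, at 97.3 to 129 TPM at day 10 and 13.8 to 18.03 TPM at day 0, with Ednrb alone at 85.6 to 117 TPM at day 10 and 0.0753 to 0.248 TPM at day 0. Without Ednrb the sum was 9.48 to 12.7 TPM at day 10 and 13.8 to 17.9 TPM at day 0, and Foxd3 was the marker that fell (log2 change -7.86, adjusted p = 2.89e-11 by edgeR). The part of these cell types in the changes of the semaphorins, plexins and neuropilins was not tested.

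Day 10 library 2 differed from the other day 10 libraries in these markers. The 12 neural markers summed to 72.7, 219, 76.1 and 70.4 TPM in day 10 libraries 1 to 4 and to 220 to 236 TPM at day 0. Stmn2 alone had 136 to 154 TPM at day 0 and 2.07 to 8.26 TPM at day 10, so the day 0 sum rested mostly on it. Among the 11 tested markers 4 were higher and 4 lower at day 10, against 42.7% and 39.4% of all genes tested. Day 10 library 2 was the lowest of its day in fibroblast markers, at 3156 TPM, and the highest in epithelial and visceral endoderm markers, at 1929 TPM. In TPM it was the highest library of its day in Sema5b, Sema6a, Sema4g, Sema4a, Sema7a, Sema4c, Sema6b and Plxnb1. It was the lowest in Nrp1, Nrp2, Plxna4, Plxnc1, Sema3a, Sema3d, Sema3e, Sema3f, Sema5a and Sema6d. Without it the log2 change was 0.31 for Sema4g (adjusted p = 0.0242), 2.38 for Sema6a, 7.85 for Plxna4 and -0.42 for Sema7a (adjusted p = 0.0954).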

How the data were processed

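The authors deposited 1 table per library, with estimated counts and TPM for 126126 transcripts per the file headers. Quantification used kallisto, given as version 1 per the submitters' processing notes, which also name DESeq2. Its reference and build are not given in the sources here. As deposited by the authors, the estimated counts are unscaled and the TPM are scaled for effective length.

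Transcripts were joined to GENCODE M21 (GRCm38) without version, which matched 117992 of them (93.6%). The rest (1.15 to 1.23% of counts) was not used. Of the 226 transcripts of the 31 genes, 225 had equal length in both sources. Counts were summed per gene over 32780 genes, rounded and tested with edgeR 4.0.16 in R 4.3.3 (filterByExpr, TMM, robust quasi-likelihood; glmTreat against a log2 change of 1 for changes over 2-fold). The common biological coefficient of variation was 12.5%. SE is the log2 change over the square root of F. The fit was tested on simulated data. The 18 alternatives used DESeq2 1.42.0 and limma 3.58.1 among others. Limma-trend on TPM used a pseudocount of 0.1 or 1, which understates changes of low genes, and moved the median log2 change of all genes to 0.45 and 0.40. To remove the length trend, a lowess curve (span 0.3) of log values against gene length was subtracted per library. Kallisto shares reads among similar transcripts, so single transcripts and overlapping genes are uncertain. The replicate numbers are not said to mark shared cultures.

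The 31 genes and the gene lists were chosen with earlier results of these data known. All 31 genes are named, and from each of the 4 partner lists the 2 called genes with the smallest p in each direction, of which 1 is not reported here. Figures were drawn and tables joined with Python 3.11.15 and pandas 2.3.3.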

Additional observations from a re-analysis of the deposited data

Results flagged for a closer look

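In 4 of 70 sets of 4 library values (each gene and summed level on each day), 1 library lay far from the other 3 by Dixon's test at the 95% level. Chance alone flags about 1 in 20 such sets. Sema5b was at 8.37 TPM in day 10 library 2, with the next library at 2.48, and this is the library with the highest neural marker sum of its day. Sema5a was at 34.2 TPM in day 10 library 1, with the next at 29.8, and at 1.21 TPM in day 0 library 2, with the next at 1.01. Plxna2 was at 42.9 TPM in day 10 library 1, with the next at 38.2. In each case the library stood above the others of its day, and none of them crossed into the range of the other day.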

How the results depend on the processing

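Of 30 tested genes, 24 stayed on the same side of the threshold with the same direction under all 18 alternatives. Removing the length trend reversed Plxna1 to -0.17 (adjusted p = 0.0111), the 1 receptor then called lower, and Sema4g to -0.14, and it ended the call of Sema6b. Limma-trend on TPM turned Sema7a to 0.027 and 0.015 (pseudocounts 0.1 and 1), ended the calls of Sema4a and Sema4f so that 3 ligands were called lower, and left 1 ligand lower by over 2-fold, as did DESeq2, while an average transcript length offset left 2. Over all genes 1329 and 1111 were lower by over 2-fold on TPM, against 2612 on counts. The cause was not tested. On protein-coding transcripts alone, mean sums were 346.0 TPM at day 10 and 77.64 at day 0 for ligands, and 646.9 at day 10 and 62.69 at day 0 for receptors, and the receptor share at day 0 was 44.62%. Over all transcripts but without Sema6a and Nrp1, the sums were 361.6 TPM at day 10 and 101.7 at day 0 for ligands. For receptors they were 612.8 TPM at day 10 and 112.3 at day 0. The receptor share was then 62.77% at day 10 and 52.45% at day 0. Leaving out any library moved none of the counts of calls or sums beyond these bounds. Values of single genes under the alternatives were counted over the 30 genes and the partner genes picked by smallest p together. Of these values, 775 kept direction and side, 13 lost the call and 4 reversed. With a replicate block 12298 genes were called, 6403 higher and 5895 lower, against 12399, and no call among the 30 genes changed. Same-numbered libraries deviated together only at r = 0.0301 to 0.0494, and each correlated best with its own number. At 1 to 24 counts per day 0 library, Nrp1, Sema3a, Sema3b, Sema3d, Sema3g, Sema6b and Plxna4 have folds limited by counting there.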
